A study of Mus musculus with 12 samples.

Results

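The circadian clock genes examined here were Per1, Per2, Per3, Cry1, Cry2, Arntl (also called Bmal1), Clock, Nr1d1, Nr1d2 and Dbp, 10 of the 23420 genes of the count table, each found in 1 row by its symbol. RNA was sequenced from monocytic myeloid-derived suppressor cells (M-MDSCs), immature myeloid cells that can give rise to osteoclasts. These were sorted from the bone marrow of the tibia as CD11b+, Ly6G- and Ly6C high cells. The mice were male C57BL/6JNIA mice, a strain of the ageing colony of the National Institute on Aging, and carried no transgene or treatment. Young mice were 6 months old (n = 6) and aged mice 24 months old (n = 6), and each mouse gave 1 library. The ages were compared to ask how the transcripts of osteoclast-forming cells differ in aged marrow.

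The clock is a feedback loop of transcription. CLOCK and ARNTL bind together to E-boxes in promoters and drive the Per, Cry, Nr1d and Dbp genes, PER and CRY proteins then enter the nucleus and repress CLOCK and ARNTL, and the receptors encoded by Nr1d1 and Nr1d2 (REV-ERB alpha and beta) repress Arntl through ROR elements. DBP, an output factor, acts on D-boxes, and Per1 and Per2 are also induced directly by cAMP and glucocorticoid signals. In myeloid cells the clock is known for daily rhythms of trafficking and cytokine release. The hour of collection is not given in the sources used here, so age and any difference in hour cannot be told apart.

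Library totals were 8737941 to 16300374 fragments in aged and 4613239 to 9079237 in young mice. The aged libraries carry higher sample numbers in the column names (17 to 19 and 24 to 26) than the young ones (11 to 16), so age and a change of batch after number 16 cannot be told apart. The ages were compared by the quasi-likelihood test of edgeR, in which a gene was called at a Benjamini-Hochberg adjusted p under 0.05 over all 9742 genes with enough counts. Of these, 45.4% were called (22.4% higher and 23.0% lower in aged mice), with 1682 higher and 2762 lower against 2185 and 2240 when libraries were scaled to their totals only. The longer a gene, the lower was its log2 fold change (Spearman's rho -0.48 over the tested genes, a description over genes that are not independent). Median exon length was 4503.5 bases in the clock genes and 2890 bases over the tested genes, and each result was therefore also computed after correction for gene length.

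The labelled cell type was checked against marker genes. Itgam, which encodes CD11b, was at 2657 to 3476 CPM (counts scaled to the normalised library total) in aged and 3266 to 3538 in young mice, and Ly6c2 at 605 to 799 and 366 to 594. Transcripts of neutrophil granules went against the monocytic label in every library. Ngp was at 34229 to 44337 CPM in aged and 24838 to 35707 in young mice, while the monocyte genes Ccr2 and Csf1r did not exceed 61.9 and 205 CPM in any library. The summed level of 7 neutrophil genes per kilobase of exons was 40193 to 64515 CPM, against 1261 to 1761 for 7 genes of the sort and of monocytes. Resident macrophage genes separated aged mouse 1 from the rest. Their summed level (C1qa, C1qb, C1qc, Vcam1, Mrc1, Cd5l and Axl) was 1014 CPM in aged mouse 1, 311 in aged mouse 2, between 55.9 and 187 in the other 4 aged mice and between 45.3 and 63.4 in the young. All 7 of 7 were called higher with age (22.4% of all genes were). Values without aged mouse 1, or without aged mice 1 and 2, therefore stand beside the clock genes below. Summed stromal genes were at 25.7 to 94.8 CPM in aged mice 1, 2, 4, 5 and 6, above every young mouse (7.04 to 15.8 CPM), and at 8.38 CPM in aged mouse 7. Most of this sum was Cxcl12 (mean 29.5 CPM in aged and 6.22 in young mice), which was called higher (2.35, adjusted p = 0.00309). Col1a1 was not called (-0.26, adjusted p = 0.481). Col1a2, Lepr and Kitl were not tested, with means of 1.93 to 2.26 CPM in aged and 0.328 to 0.538 in young mice. Summed plasma cell genes were at 133 to 233 CPM in aged and 109 to 159 CPM in young mice, with aged mice 1, 2 and 5 above all young mice. Most of this sum was Xbp1 (mean 140 CPM in aged and 112 in young mice), which was called higher (0.31, adjusted p = 0.00885). Jchain was not called (0.48, adjusted p = 0.357). Sdc1, Mzb1 and Tnfrsf17, each at a mean of 2.34 CPM or less, were not tested. Dendritic cell genes (0.748 to 2.33 CPM in aged, 3.12 to 7.73 in young mice) and erythroid genes (0.534 to 5.22 and 0 to 0.355 CPM) were low in sum but separate between the ages. The dendritic sum was mostly Clec9a (mean 0.829 CPM in aged and 4.51 in young mice), the only 1 of the 6 genes tested. Flt3, Xcr1, Siglech, Zbtb46 and Cd209a had means of at most 0.371 CPM, and each overlapped between the ages. The erythroid sum was mostly Alas2 (mean 1.56 and 0.143 CPM), which was not tested. Summed proliferation genes were at 304 to 703 CPM in aged and 595 to 1201 CPM in young mice, and 2 of 6 were called lower (23.0% of all genes were), among them Mki67 (-2.01, adjusted p = 1.34e-04). Their median log2 difference was -0.08, and 1 was called lower after the length correction. The part of these cells in the clock results was not tested. In bulk RNA, fewer cells of a type and less RNA per cell cannot be told apart.

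Promoters of the clock genes are shown because they carry the elements through which the loop acts. Windows of 250 bases before to 50 after the start sites were taken from a set of RefSeq promoters (GRCm38.p6, the build mm10 of the count table). The set used held 9 of the 10 genes (all but Per2) in 13 windows. They were searched for exact matches, on either strand, of the E-box CACGTG, the related E prime box CACGTT, the D-box TTANGTAA, the ROR element core TAGGTCA and the cAMP response element TGACGTCA. Of all 32851 windows, 7.15%, 4.68%, 2.32%, 2.61% and 1.79% held these, in that order. The 250 bases upstream of the start are printed for the genes with a match there, 5′ to 3′ along the gene, with matches in capitals (an E prime box on the opposite strand reads AACGTG). They are Per1 (chr11:69098699-69098948, plus strand), Per3 (chr4:151044666-151044915, minus), Cry1 (chr10:85185055-85185304, minus), Cry2 (chr2:92434070-92434319, minus) and Nr1d1 (chr11:98775378-98775627, minus).
Per1: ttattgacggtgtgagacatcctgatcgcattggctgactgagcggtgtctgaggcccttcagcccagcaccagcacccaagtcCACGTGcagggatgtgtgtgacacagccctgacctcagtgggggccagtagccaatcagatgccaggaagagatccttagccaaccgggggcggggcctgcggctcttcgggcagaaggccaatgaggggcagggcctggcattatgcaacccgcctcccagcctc
Per3: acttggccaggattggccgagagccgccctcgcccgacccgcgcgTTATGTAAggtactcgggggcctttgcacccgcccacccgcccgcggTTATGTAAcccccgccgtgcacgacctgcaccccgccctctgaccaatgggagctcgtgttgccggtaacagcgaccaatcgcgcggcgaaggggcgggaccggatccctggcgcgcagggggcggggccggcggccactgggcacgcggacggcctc
Cry1: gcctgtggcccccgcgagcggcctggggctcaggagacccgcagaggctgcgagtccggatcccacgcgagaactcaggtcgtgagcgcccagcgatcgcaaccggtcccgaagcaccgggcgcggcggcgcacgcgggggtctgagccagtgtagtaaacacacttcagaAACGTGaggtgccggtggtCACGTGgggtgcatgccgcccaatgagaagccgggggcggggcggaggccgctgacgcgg
Cry2: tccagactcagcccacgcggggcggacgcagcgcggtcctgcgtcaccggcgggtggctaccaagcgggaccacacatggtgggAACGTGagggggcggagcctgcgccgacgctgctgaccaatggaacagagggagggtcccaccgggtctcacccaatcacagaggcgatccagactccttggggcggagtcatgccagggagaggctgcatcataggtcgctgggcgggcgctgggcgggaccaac
Nr1d1: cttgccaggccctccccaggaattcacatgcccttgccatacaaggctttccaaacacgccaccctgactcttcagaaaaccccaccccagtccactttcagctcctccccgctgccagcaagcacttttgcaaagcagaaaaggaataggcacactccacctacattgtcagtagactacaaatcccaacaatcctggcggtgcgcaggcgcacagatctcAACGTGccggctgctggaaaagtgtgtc

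The Per1 window held an E-box 166 bases before the start, and Cry1 held an E-box at 60 and an E prime box at 79 bases. Cry2 and Nr1d1 each held an E prime box, at 166 and 28 bases, and Per3 held 2 D-boxes, at 205 and 158 bases. In Arntl a ROR element core lay 31 bases after a start site (chr7:113207530-113207559, plus strand), in the following 30 bases.
Arntl: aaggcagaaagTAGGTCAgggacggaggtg

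No match of these letters was in the windows of Clock, Dbp or Nr1d2, and no window of the clock genes held the cAMP response element. No match overlapped another. These matches describe the sequence and are not evidence of binding in these cells.

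Of the 10 clock genes, 8 had enough counts for the test. Per1, Per2, Per3 and Cry2 were called lower and Nr1d2 higher in aged mice, and Clock, Cry1 and Dbp were not called. These 5 calls among 8 genes stand beside the 45.4% of all genes called, 23.0% lower and 22.4% higher. Of the 8, Per2 alone had ages that were fully separate, against 21.8% of all genes. Nr1d2 passed the filter on counts through 5 aged libraries and 1 young library, and thus largely through the age in which it was high. The other 2 genes, Arntl and Nr1d1, did not pass. After correction for gene length, Per2 alone remained called lower (16.6% of all genes were) and Nr1d2 remained called higher (18.5% of all genes were).

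**Figure D1:**
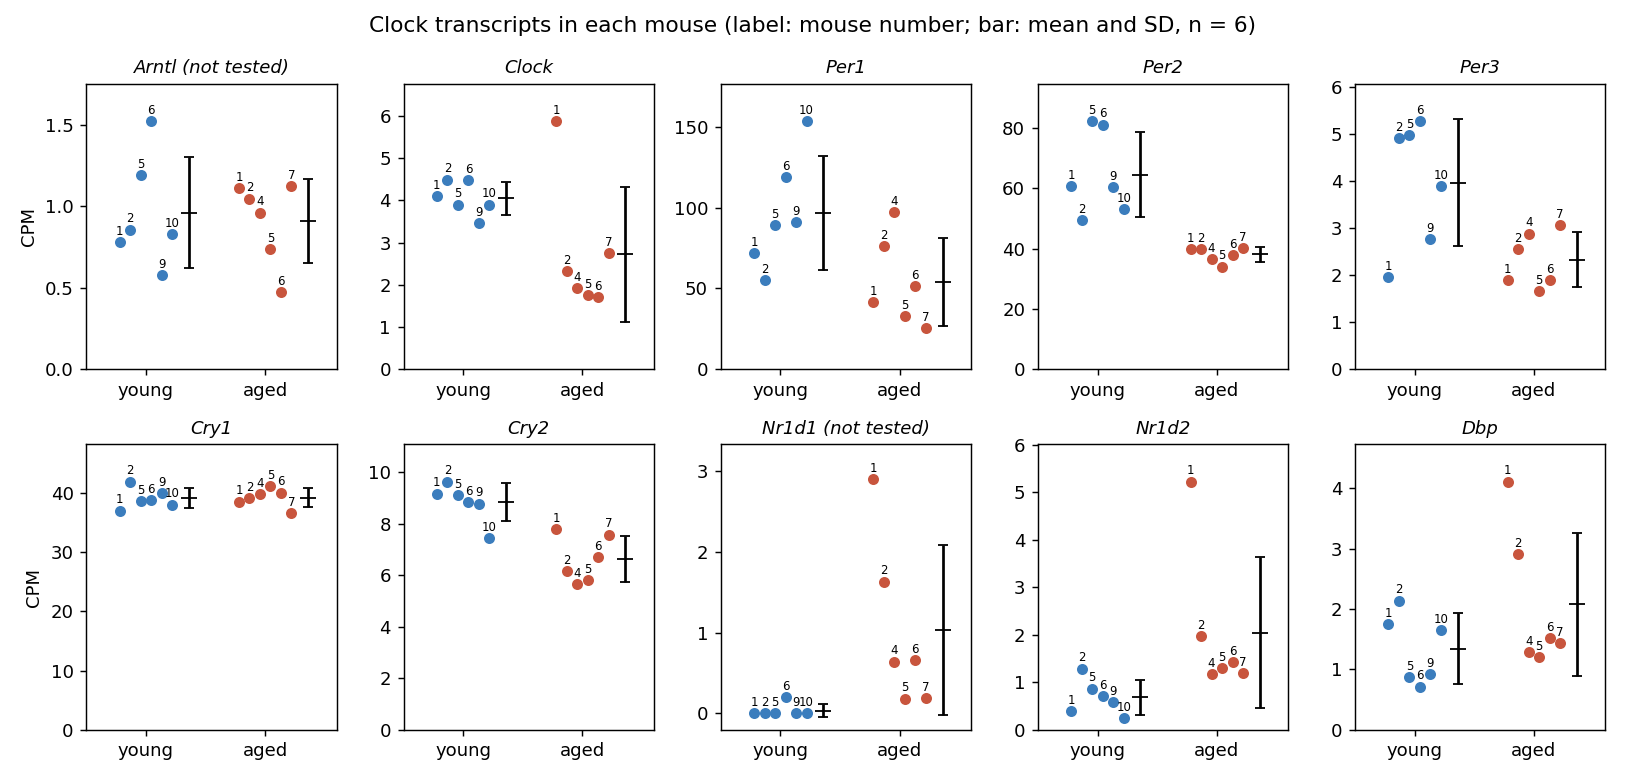
Levels of the 10 clock transcripts in each mouse, in CPM on a linear scale that differs between panels, with young mice in blue and aged mice in red, mouse numbers beside the points, and the mean and SD of 6 mice as a black bar. All 6 aged mice lie below all young mice for Per2, Cry1 is level between the ages, and aged mouse 1 is the highest of all 12 mice for Clock, Nr1d1, Nr1d2 and Dbp.

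Per2 encodes a repressor of the loop (chr1:91415982-91459328, minus strand, 23 exons after merging). It was at 34.0, 38.9 and 40.2 CPM in aged mice (lowest, median and highest) and at 49.5, 60.6 and 82.4 CPM in young mice. The aged mice lay close together and all below the lowest young mouse, as was the case for 12.1% of all genes tested, and young mice 5 and 6 were the highest. Per2 fell to a fold of 0.587 in aged mice (log2 fold change -0.77, standard error 0.12, 95% interval -1.02 to -0.51, edgeR adjusted p = 2.25e-04). It was called in 26 of 26 alternative fits, with log2 fold changes from -0.88 to -0.53 and adjusted p from 4.46e-08 to 0.0086. After correction for gene length the log2 fold change was -0.53 (adjusted p = 0.00167), and without aged mice 1 and 2 it was -0.80 (adjusted p = 0.0019). Young mice 5 and 6 also had the lowest summed neutrophil genes of all 12 libraries (60345 and 64288 CPM) and the highest summed proliferation genes (1201 and 1157 CPM, against 304 to 746 in the others). The part of cell composition in the Per2 difference was not tested.

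Per1 (chr11:69098956-69109957, plus strand, 24 exons), a repressor of the loop that cAMP and glucocorticoid signals also induce, varied widely among mice of an age. It was at 25.5, 46.4 and 97.1 CPM in aged mice and at 55.2, 90.1 and 154 CPM in young mice, with 258 to 1301 counts per library. Aged mice 2 and 4 lay within the young range and the other 4 aged mice below it. The log2 fold change was -0.86 (standard error 0.30, 95% interval -1.50 to -0.21, adjusted p = 0.0305). The call rested on the set of mice, since it was lost in 6 of 12 fits that left out a mouse (aged mouse 1, 5, 6 or 7, or young mouse 6 or 10), with log2 fold changes from -1.10 to -0.67 and adjusted p up to 0.0791 over the 12. DESeq2 gave an adjusted p of 0.0567, and correction for gene length gave -0.71 (adjusted p = 0.0794). The aged libraries numbered 24 to 26 alone gave -1.41 (adjusted p = 0.00803), whereas those numbered 17 to 19 gave -0.44 (adjusted p = 0.275).

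Per3 (chr4:151003655-151044622, minus strand, 21 exons), the third PER gene, was near the limit of counting, at 10 to 52 counts per library. It was at 1.66, 2.23 and 3.07 CPM in aged mice and at 1.95, 4.41 and 5.29 CPM in young mice. Young mice 1 and 9 lay within the aged range, and the other 4 young mice above it. Per3 fell by 0.77 on the log2 scale (standard error 0.25, 95% interval -1.30 to -0.24, adjusted p = 0.0195). The call was lost without young mouse 5 (-0.70, adjusted p = 0.0505) or young mouse 6 (-0.67, adjusted p = 0.0565), without aged mice 1 and 2 together (-0.74, adjusted p = 0.0579), and after correction for gene length (-0.53, adjusted p = 0.0904). With libraries thinned to the smallest total it was -0.47 (adjusted p = 0.173).

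The cryptochromes, the partners of PER in repression, differed from each other. Cry1 (chr10:85131700-85185054, minus strand, 13 exons) was at 36.7, 39.5 and 41.2 CPM in aged mice and at 37.1, 38.8 and 42.0 CPM in young mice. The ages overlapped almost throughout and the SD within an age was 1.54 CPM in aged and 1.71 CPM in young mice. The log2 fold change was 0.01 (standard error 0.062, 95% interval -0.13 to 0.14, adjusted p = 0.945), an interval that leaves out a change as large as that of Per2. Its sign depended on the scaling, at -0.0824 with libraries scaled to their totals only and 0.0407 with upper quartile factors.

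Cry2 (chr2:92403647-92434069, minus strand, 12 exons) was at 5.66, 6.44 and 7.78 CPM in aged mice and at 7.45, 8.97 and 9.63 CPM in young mice. Only young mouse 10 lay within the aged range, below aged mice 1 and 7. Cry2 fell by 0.41 on the log2 scale (standard error 0.12, 95% interval -0.66 to -0.15, adjusted p = 0.0122). It was called in 12 of 12 fits that left out a mouse, but not after correction for gene length (-0.29, adjusted p = 0.0633) or with thinned libraries (-0.30, adjusted p = 0.233). With the length correction and without aged mouse 1 it was called again, at -0.33 (adjusted p = 0.0388). Cry2 shares 149 exon bases with D930015M05Rik on the opposite strand, which the authors' counting separates by strand.

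**Figure D2:**
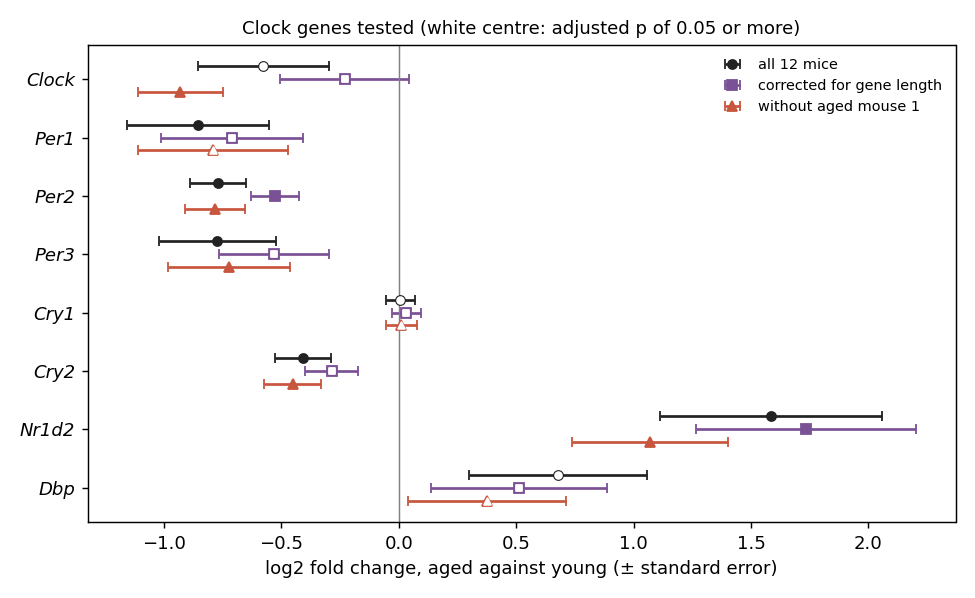
Log2 fold change of aged against young mice with its standard error for the 8 clock genes tested, from the fit of all 12 mice (circles), after correction for gene length (squares) and without aged mouse 1 (triangles). Symbols with a white centre had an adjusted p of 0.05 or more. Per2 is below zero and called in all 3 fits, Cry1 lies at zero, and Clock is called only without aged mouse 1 among these 3 fits.

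Clock encodes the DNA-binding partner of ARNTL (chr5:76212177-76304548, minus strand, 23 exons). It was at 1.70, 2.12 and 5.89 CPM in aged mice and at 3.46, 4.0 and 4.50 CPM in young mice. Aged mouse 1, at 5.89 CPM, lay above all young mice, whereas the other 5 aged mice, at 1.70 to 2.75 CPM, lay below all of them. With all mice the log2 fold change was -0.58 (standard error 0.28, 95% interval -1.17 to 0.01, adjusted p = 0.101), and Clock was not called. Aged mouse 1 decided this, since without it the log2 fold change was -0.93 (adjusted p = 0.00142), and -0.60 with the length correction as well (adjusted p = 0.0173). Limma-voom, which gave -0.71 with all mice (adjusted p = 0.0272), also called it. With the length correction and all mice it was -0.23 (adjusted p = 0.54).

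Arntl (chr7:113207465-113314126, plus strand, 20 exons) was too low for the test, with 4 to 18 counts per library. It was at 0.473, 1.0 and 1.13 CPM in aged mice and at 0.577, 0.842 and 1.53 CPM in young mice, and the ages overlapped. A fit with no filter on counts placed Arntl at -0.11 on the log2 scale (adjusted p = 0.844, standard error 0.35), a precision that leaves small differences undetected. Npas2, a paralogue of Clock that can replace it, averaged 0.0371 CPM in aged and 0.0197 CPM in young mice.

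Of the receptors that repress Arntl, Nr1d2 was called higher in aged mice and Nr1d1 had too few counts for the test. Nr1d1 (chr11:98767935-98775242, minus strand, 8 exons) had 26, 14, 6, 2, 7 and 3 counts in aged mice 1, 2, 4, 5, 6 and 7. These counts correspond to 2.89, 1.63, 0.641, 0.185, 0.662 and 0.188 CPM. In young mice it had 2 counts in mouse 6 (0.203 CPM) and 0 in the other 5, where a count of 0 allows a level of up to 0.325 to 0.642 CPM. Aged mice 5 and 7 thus lay below the level of young mouse 6.

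Summed over mice, Nr1d1 had 58 counts in aged and 2 in young libraries, a ratio of 20.7 per normalised fragment (95% exact interval 5.48 to 175, which covers counting error only). The ratio was 13.3 without aged mouse 1 (3.39 to 114) and 8.85 without aged mice 1 and 2 (2.12 to 78.6). Nr1d1 did not pass the filter on counts. A fit without that filter called it higher (adjusted p = 0.00283), as 14.6% of all genes were in that fit, and DESeq2 gave an adjusted p of 6.28e-04.

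Nr1d2 (chr14:18204056-18239106, minus strand, 8 exons) was at 1.17, 1.36 and 5.22 CPM in aged mice and at 0.236, 0.645 and 1.28 CPM in young mice. Aged mouse 1 stood far above the rest, and young mouse 2 lay above the lowest aged mice, 4 and 7. The log2 fold change was 1.59 (standard error 0.47, 95% interval 0.58 to 2.59, adjusted p = 0.0131), a fold of 3.0. Each of the 12 fits that left out a mouse called it, with adjusted p up to 0.029. It was 1.07 without aged mouse 1 (adjusted p = 0.0189), 0.94 without aged mice 1 and 2 (adjusted p = 0.0453) and 1.73 with the length correction (adjusted p = 0.0107). The aged libraries numbered 24 to 26 alone gave 0.97 (adjusted p = 0.0708).

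Dbp (chr7:45705247-45710203, plus strand, 4 exons), a direct target of CLOCK and ARNTL and a strongly rhythmic output factor in many tissues, was at 1.20, 1.48 and 4.11 CPM in aged mice and at 0.712, 1.29 and 2.14 CPM in young mice. Aged mice 1 and 2 lay above all young mice, and the other 4 aged mice within the young range. The log2 fold change was 0.68 (standard error 0.38, 95% interval -0.13 to 1.49, adjusted p = 0.154), and Dbp was not called in any of the 24 alternative fits that tested it. Without aged mouse 1 it was 0.38 and without aged mice 1 and 2 it was 0.12. Dbp shares 539 of its 1678 exon bases with Sphk2 on the opposite strand, so that its count relies on the stranded counting.

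**Figure D3:**
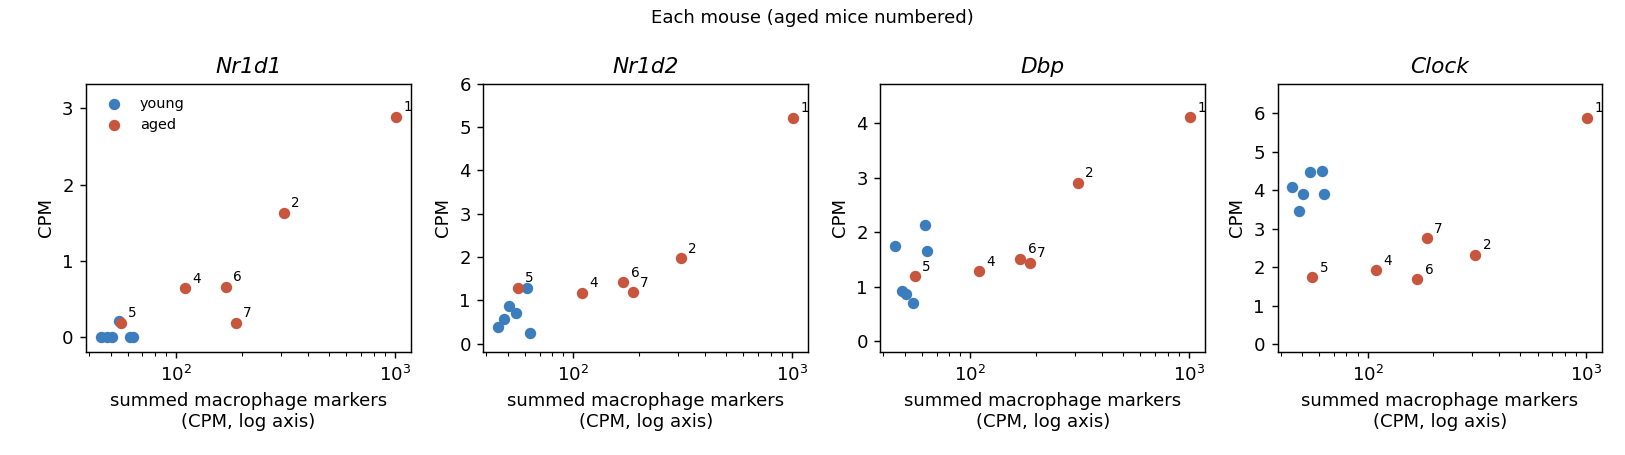
CPM of Nr1d1, Nr1d2, Dbp and Clock in each mouse against the summed CPM of 7 resident macrophage genes (log axis), with young mice in blue and aged mice in red and numbered. Aged mouse 1 is farthest right and highest in each panel, and the young mice fall between 45.3 and 63.4 CPM of macrophage genes.

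Aged mice 1 and 2 were thus highest for Nr1d1, Nr1d2 and Dbp, and also for the summed macrophage genes. Aged mouse 5 had macrophage genes within the young range, at 55.9 CPM. In that mouse Nr1d2, at 1.29 CPM, lay just above the highest young mouse (1.28 CPM), Nr1d1, at 0.185 CPM, lay below young mouse 6, and Dbp, at 1.20 CPM, lay within the young range. Clock, at 1.75 CPM, lay below all young mice there. The part of macrophage RNA in these differences was not tested.

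Levels of different genes were compared per kilobase of exons (CPM per kilobase, mean ± SD, n = 6). In young mice Per1 was highest (20.6 ± 7.5), followed by Cry1 (12.97 ± 0.57) and Per2 (11.1 ± 2.4), whose ranges overlapped. Per1 was on average 1.597 times Cry1 in the young mice. Cry2 was next (2.02 ± 0.17), with a range apart from its neighbours on either side.

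Below Cry2, the order in young mice was Dbp (0.80 ± 0.35), Per3 (0.667 ± 0.23), Clock (0.542 ± 0.052) and Arntl (0.33 ± 0.12), each overlapping the next. Nr1d2 (0.146 ± 0.08) overlapped Arntl, and Nr1d1 (0.0129 ± 0.032), with the lowest mean, overlapped Nr1d2. In aged mice Cry1 led (13.02 ± 0.51), and overlapped Per1 (11.5 ± 5.8), which overlapped Per2 (6.52 ± 0.42). Cry2 (1.52 ± 0.21) and Dbp (1.24 ± 0.70) overlapped in aged mice. Nr1d2 (0.441 ± 0.34), Nr1d1 (0.393 ± 0.40), Per3 (0.391 ± 0.099), Clock (0.364 ± 0.21) and Arntl (0.313 ± 0.088) overlapped one another and could not be ordered beyond their spread.

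Whether clock genes varied together among mice of an age was examined in 56 correlations of log2 CPM (28 pairs in each age, 6 mice, exact two-sided permutation tests, Benjamini-Hochberg over the 56). None passed an adjusted p of 0.05, 7 had an unadjusted Pearson p under 0.05 and 3 an unadjusted Spearman p under 0.05. The smallest Pearson p that 6 mice allow is 0.00139, or 0.0778 after multiplication by 56, so no pair could have passed on its own. Per1 and Cry2 in young mice had the smallest p (r = -0.89, exact p = 0.00694, adjusted p = 0.272, rho = -0.94, exact p = 0.0167, adjusted p = 0.467), with r = -0.70 without the 2 mice farthest from the median of Per1. For Nr1d2 and Dbp in aged mice r was 0.93 (exact p = 0.00972, adjusted p = 0.272) and rho 0.83 (exact p = 0.0583, adjusted p = 0.653). That relation rested on 2 mice, since without the 2 farthest from the median of Nr1d2 r was 0.38.

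For Dbp and Arntl, the genes with the most similar deviations from the age means over the 12 mice were sought among 6589 other genes with a mean of at least 10 CPM, as a description in counts that are sparse for both. The closest to Dbp were Cerk (r = 0.88), Psap (0.87), Jup (0.86), Lipa (0.84) and Emr1 (0.84). Emr1 encodes the macrophage antigen F4/80, and Psap and Lipa encode lysosomal proteins. A link of Dbp to macrophages was not tested. The closest to Arntl were Tep1 (0.91), Plekhg2 (0.90), Rps6kb1 (0.89), Phka2 (0.88) and Akap8 (0.88). For both genes these were the highest of 6589 correlations over 12 mice, a choice that by itself raises r, and no p was computed.

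Of 41 other clock genes in the table, grouped by role, 33 were tested, of which 6 were called higher (22.4% of all genes were), 11 lower (23.0% of all genes were) and 16 were not called (median log2 fold change -0.05, against 0.01 over all genes tested). The genes called lower were long, with a median of 6325 exon bases, against 3568.5 for those called higher. After correction for gene length 8 were called higher and 4 lower (18.5% and 16.6% of all genes were), and 4 of the 6 and 4 of the 11 kept their call. ROR receptors, the activators that compete with REV-ERB, were not tested, and Rora averaged 0.0579 CPM in aged and 0.0339 CPM in young mice.

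**Figure D4:**
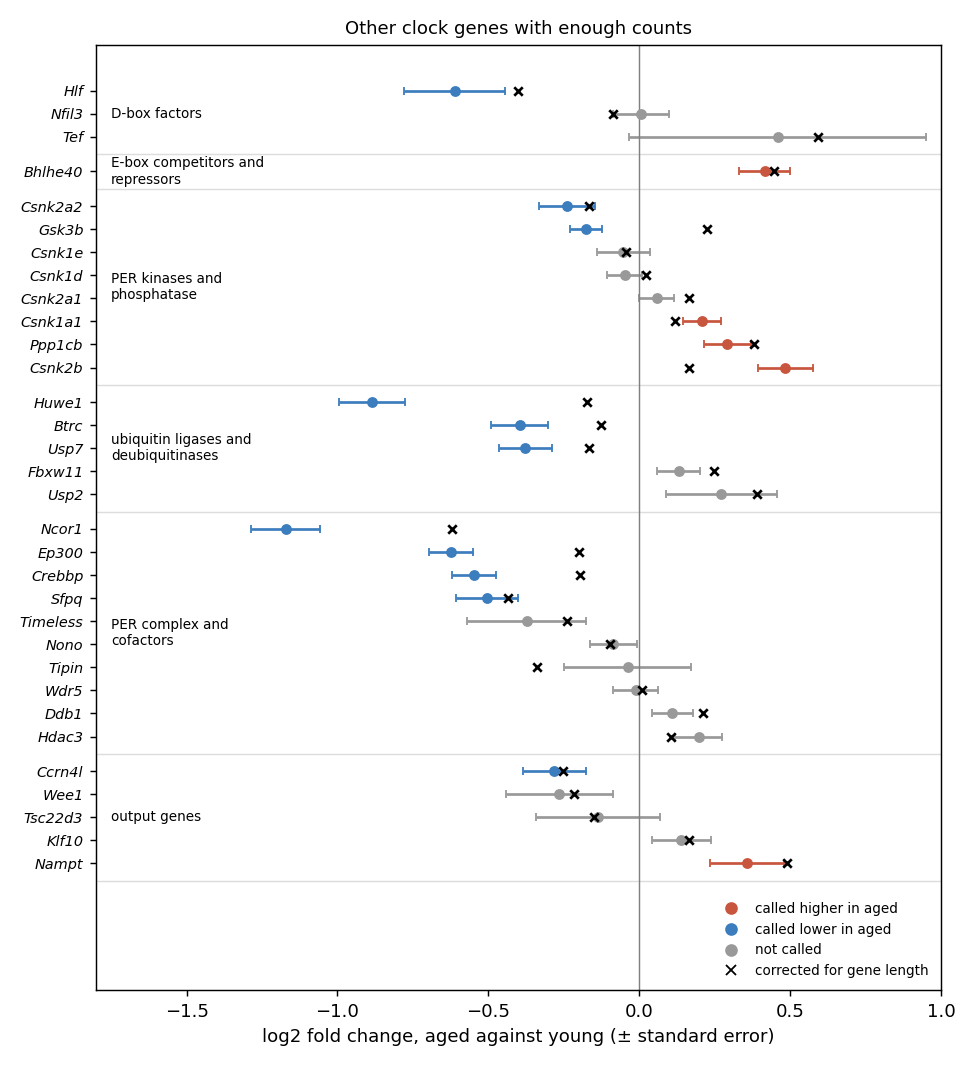
Log2 fold change of aged against young mice with its standard error for the other clock genes tested and reported, by role and coloured by call, with crosses for the value after correction for gene length. The genes of the PER complex called lower stay below zero after the correction, whereas Huwe1 moves from -0.88 to -0.17.

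Among the E-box repressors only Bhlhe40 (DEC1) was tested. It was at 43.6, 48.9 and 58.1 CPM in aged mice and at 31.0, 38.2 and 41.3 CPM in young mice. All aged mice lay above all young mice, as did 9.64% of all genes tested. Bhlhe40 rose by 0.42 on the log2 scale (standard error 0.085, edgeR adjusted p = 0.00136), and by 0.45 with the length correction (adjusted p = 0.00123).

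Of the 3 D-box factors related to or opposing DBP, 1 was called lower (23.0% of all genes were) and 2 were not called. Hlf was at 5.58, 7.17 and 11.95 CPM in aged mice and at 9.63, 11.7 and 14.2 CPM in young mice, with aged mouse 7 alone in the young range. It fell by 0.61 on the log2 scale (standard error 0.17, adjusted p = 0.00788), and the length correction left -0.40 (adjusted p = 0.0598). Nfil3, the D-box repressor, was at 0.01 (standard error 0.094, adjusted p = 0.965) and Tef at 0.46 (standard error 0.49, adjusted p = 0.465), with Tef highest in aged mouse 1 at 6.78 CPM.

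Of 8 kinase and phosphatase genes that act on PER, 3 were called higher (22.4% of all genes were), 2 lower (23.0% of all genes were) and 3 were not called, with 3 higher and 0 lower after the length correction (18.5% and 16.6% of all genes were). The corrected 3 were Ppp1cb, Csnk2a1 and Gsk3b, of which Ppp1cb alone was called higher in both fits. Ppp1cb, a catalytic subunit of protein phosphatase 1, was higher in all aged than in all young mice (0.29, adjusted p = 0.00674), and was at 0.38 after the correction (adjusted p = 0.00359). Csnk2b, the regulatory subunit of casein kinase 2, had the largest rise and smallest p (0.48, adjusted p = 7.68e-04), which became 0.17 after the length correction (adjusted p = 0.067). Csnk2a2, a catalytic subunit, had the largest fall (-0.24, adjusted p = 0.0479), which became -0.17 after the length correction (adjusted p = 0.171) and kept its call in 3 of 12 fits that left out a mouse (adjusted p up to 0.11). The main PER kinases, casein kinase 1 delta and epsilon, were not called (Csnk1d -0.05, adjusted p = 0.519, and Csnk1e -0.05, adjusted p = 0.644). Gsk3b changed sign with the correction, from -0.17 (adjusted p = 0.0145) to 0.22 (adjusted p = 0.0157).

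Of 6 ubiquitin ligases and deubiquitinases tested, 3 were called lower (Huwe1, Btrc and Usp7, where 23.0% of all genes were). After the length correction 0 were called lower (16.6% of all genes were). Btrc was then at -0.13 (adjusted p = 0.315) and Usp7 at -0.17 (adjusted p = 0.069). Huwe1, a very large ligase that targets REV-ERB alpha, was lower in all aged than in all young mice, at 57.3 to 86.2 against 117 to 165 CPM (-0.88, adjusted p = 4.37e-05). With 14624 exon bases, its difference was -0.17 after the length correction (adjusted p = 0.0723).

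Of 10 genes of the PER complex and clock cofactors, 4 were called lower (Ncor1, Ep300, Crebbp and Sfpq; 23.0% of all genes were), 0 higher and 6 were not called. After the length correction 1 was higher and the same 4 were lower (18.5% and 16.6% of all genes were). Ncor1, the corepressor through which REV-ERB acts, was at 233, 263 and 385 CPM in aged mice and at 547, 607 and 765 CPM in young mice, with no overlap. It had the largest fall and smallest p of all the other clock genes (-1.17, standard error 0.12, adjusted p = 7.83e-06), and was at -0.62 after the length correction (adjusted p = 1.22e-04). Hdac3, the deacetylase that works with NCOR1, was at 0.20 (adjusted p = 0.0524).

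Of 5 output genes, 1 was called higher (22.4% of all genes were) and 1 lower (23.0% of all genes were). Nampt, the rate-limiting enzyme of NAD salvage, rose (0.36, adjusted p = 0.0273), and rose also with the correction (0.49, adjusted p = 0.0111). The deadenylase gene Noct (Ccrn4l in the table) fell (-0.28, adjusted p = 0.0391), with -0.25 after the correction (adjusted p = 0.0594). Wee1 (-0.27, adjusted p = 0.232), Klf10 (0.14, adjusted p = 0.261) and Tsc22d3 (-0.14, adjusted p = 0.607) were not called. Leaving out 1 mouse kept the call of Nampt in 8 and of Noct in 5 of 12 fits.

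Per1 and Per2 share inducers with immediate early genes. Of 18 such genes 17 were tested, and 12 were called lower in aged mice (23.0% of all genes were), 0 higher and 5 were not called. Of those not called, Jund (0.08, adjusted p = 0.609) and Egr2 (0.34, adjusted p = 0.456) had values above zero. After the length correction 11 were lower (16.6% of all genes were) and 0 higher, and with the aged libraries numbered 17 to 19 alone 6 were lower, against 11 with those numbered 24 to 26 alone. Their median log2 fold change was -0.48, against 0.01 over all genes tested. The largest fall was in Fosb (-1.98, adjusted p = 0.0043) and the smallest p in Zfp36 (-1.05, adjusted p = 5.20e-05). The summed level was 2548 to 3781 CPM in aged and 4164 to 5533 CPM in young mice. Aged mouse 7, the lowest for Per1 (25.5 CPM), was also the lowest of all mice for this sum. Young mice 10 and 6, the highest for Per1 (154 and 119 CPM), were the highest for the sum (5140 and 5533 CPM). Other mice differed in order. The highest aged mouse was mouse 4 for Per1 but mouse 2 for the sum, and the lowest young mouse was mouse 2 for Per1 but mouse 1 for the sum. For Per2, aged mouse 7 was the highest aged mouse (40.2 CPM). Young mouse 10 was low for Per2 among the young (53.2 CPM, with 49.5 the lowest), whereas young mouse 6 was high (81.2 CPM). The part of induction during collection and sorting in the Per1 difference was not tested.

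Of 10 glucocorticoid response genes, a list that holds Per1 itself, 8 were tested, with 1 called higher (22.4% of all genes were), 1 lower (Per1; 23.0% of all genes were) and 6 not called. Ddit4, an inhibitor of mTOR signalling, rose (0.73, adjusted p = 0.0216), and had 0.56 after the length correction (adjusted p = 0.0676). After that correction 1 was called higher (18.5% of all genes were) and 0 lower (16.6% of all genes were). The 1 called higher was Sgk1, at 0.43 (adjusted p = 0.0253), against 0.33 in the main fit (adjusted p = 0.0523). Fkbp5, a feedback inhibitor of the receptor, was at -0.10 (adjusted p = 0.533). The summed level of the list, Per1 included, was 342 to 729 CPM in aged and 443 to 735 CPM in young mice. As for Per1, aged mouse 7 was the lowest of all mice, aged mouse 4 the highest aged mouse and young mouse 10 the highest young mouse. Part of this likeness is built in, since Per1 gave 97.1 CPM of the sum in aged mouse 4 and 154 CPM in young mouse 10. The largest part of the sum was Tsc22d3 (149 to 369 CPM in aged and 180 to 385 in young mice). The part of glucocorticoid signals in the Per1 difference was not tested.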

How the data were processed

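The members and all gene lists were chosen with earlier results of these data known. Per the labels and the study's methods, the libraries were stranded TruSeq libraries sequenced in pairs on a NovaSeq. The deposited values are raw counts of fragments, made by the authors with featureCounts 2.0.0 over the exons of a UCSC annotation of mm10, with reverse-stranded counting and a mapping quality of at least 60, without normalization. The aligner is not given in the sources used here. Gene lengths are those of the deposited table.

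Genes were kept with filterByExpr (at least 1.14 CPM in 6 libraries), scaled with TMM factors and tested with edgeR 4.0.16 in R 4.3.3, quasi-likelihood test, 6 aged against 6 young mice, with Benjamini-Hochberg adjustment over 9742 genes. Standard errors are the log2 fold change over the root of F. CPM are counts scaled to the TMM-normalised library total. Gene length was corrected with a spline of log2 CPM on length in each library. A value of 3 counts corresponded to 0.188 to 0.642 CPM. Named genes were all members, the largest rise, largest fall and smallest p called in each list, and every gene of a role with 5 or fewer tested. Gsk3b, Ppp1cb, Csnk2a1, Csnk1d, Csnk1e, Btrc, Usp7, Ep300, Crebbp, Sfpq, Hdac3, Jund, Egr2, Fkbp5, Sgk1, Mki67, Npas2 and Rora were named after their values were seen. So were the marker genes Flt3, Xcr1, Siglech, Zbtb46, Cd209a, Alas2, Col1a2, Lepr, Kitl, Sdc1, Mzb1 and Tnfrsf17. Alternatives included DESeq2 1.42.0 and limma-voom 3.58.1, other scalings and filters, thinning, and each mouse left out. The edgeR step was tested on simulated data with the same dispersion for every gene. Those data held no trend with gene length and no lone mouse, so the test does not bear on these features. Ly6g was not analysed here, and 1 other clock gene that entered the counts is not reported here.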

Additional observations from a re-analysis of the deposited data

Results flagged for a closer look

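In 92 sets of 6 values (each clock gene and 3 marker sums, in each age), 9 held a mouse that stood apart from the other 5 by Dixon's test. Chance flags about 1 in 20 sets. Aged mouse 1 stood apart in 4 of them, with Clock at 5.89 CPM (1.70 to 2.75 in the other aged mice), Nr1d2 at 5.22 CPM (1.17 to 1.98), Tef at 6.78 CPM (0.854 to 2.56) and the summed resident macrophage genes at 1014 CPM (55.9 to 311). Whether these go together because of cell composition was not tested. Nr1d1 in young mouse 6 was at 0.203 CPM, from 2 counts, with 0 counts in the other 5 young mice.

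Aged mouse 7 stood apart with Hlf at 11.95 CPM (5.58 to 7.90 in the other aged mice) and Hdac3 at 29.1 CPM (32.7 to 34.0). Csnk2a2 was at 14.8 CPM in aged mouse 5 (17.5 to 18.5 in the others) and at 25.6 CPM in young mouse 1 (18.8 to 20.6).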

How the results depend on the processing

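The number of clock genes called higher (1 of 8 tested) was 2 with DESeq2 and with no filter, where Nr1d1 was added. It was 0 with at least 10 counts in every mouse and with thinned libraries, where Nr1d2 was not tested. The number called lower (4) was 1 and that of the other clock genes called lower (11) was 4 after correction for gene length, and 2 of the clock genes were called lower with thinned libraries. Cry1, at 0.01, changed sign with libraries scaled to their totals only (-0.0824), with thinned libraries (-0.0544), and among fits that left out a mouse (-0.00877 to 0.0301). With 1 mouse left out, 2 to 4 clock genes were called lower.

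Further alternatives were chosen after seeing the data. The aged libraries numbered 17 to 19 alone gave 2 clock genes called lower and 2 other clock genes called higher. Those numbered 24 to 26 gave 0 clock genes called higher, 6 other clock genes called lower and 1493 of all genes called lower. With the length correction and without aged mouse 1, 2 other clock genes were called lower. Arntl and Nr1d1 had too few counts for the filter.

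Mouse numbers 1, 2, 5 and 6 occur in both ages, but deviations of same-numbered mice correlated at -0.25 to -0.07, so the numbers were not taken to pair the mice, and no mouse correlated best with its own number. A replicate block on these 8 mice gave 0 clock genes called higher and 2 lower, 3 other clock genes called higher, and 1586 higher and 1860 lower over all genes, against 2088 and 2306 in the same mice without the block. Of the immediate early genes 5 were called lower with the block and 7 without it, against 12 with all mice. The ratio of Per1 to Cry1 in young mice, 1.597 per exon length, was 2.49 without length. None of the 56 correlations, and none as deviations over 12 mice, passed adjustment.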
